A study of Mus musculus with 12 samples.

Results

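The data described here are the messenger RNA levels of Min6 cells that received a control hairpin and palmitate, in 6 sequencing libraries out of the 12 of the series. Min6 is a mouse insulinoma line that makes and secretes insulin and is used in place of primary beta cells. The 6 libraries were chosen by their sample titles, which carry GFP and a number from 1 to 6, and are called sh-ctrl libraries 1 to 6. All 6 came from cells of the wild-type genotype that were infected with an adenovirus carrying a control hairpin for 48 h and given 0.3 mM palmitate, a saturated fatty acid, for 24 h. The other 6 libraries carried a hairpin against Il22ra1 and were not analysed here. The 6 libraries hold no cells without palmitate or without adenovirus, so effects of the fatty acid, of the virus and of the line itself on a level cannot be told apart. Min6 is a transformed, dividing line, which limits it as a model of a resting islet cell.

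A pancreatic beta cell takes up glucose, burns it, and closes ATP-sensitive potassium channels as its ATP rises. The membrane then depolarises, calcium enters, and granules that hold insulin, islet amyloid polypeptide and granins fuse with the surface. Saturated fatty acids are taken up, activated to acyl-CoA, and burned or stored, and in excess they are known to burden the endoplasmic reticulum where proinsulin folds.

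Between 13108494 and 15887448 reads per library fell in genes, with a mean of 14.6 ± 0.947 in units of 1e+06 (SD, n = 6). Levels are given as CPM, reads per 1e+06 gene reads, for 1 gene across libraries. Where different genes are compared, levels are given as TPM, which divides by the gene's exon length and makes each library sum to 1e+06. No 2 libraries agreed within sampling noise: even the closest pair, 3 and 5, gave a chi-square over genes of 5.17 for each degree of freedom, and all 6 were counted. The labels do not say whether the 6 were separate cultures, so the spread given here may be technical. Libraries 1 and 4 stand on one side of the main axis of variation and libraries 2 and 6 on the other, as described with the spread below.

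Of 24421 gene symbols, 12164 reached at least 1 CPM in every library, which is 49.8% of all symbols, and are called expressed here. A further 1076 reached 1 CPM in some of the libraries, and 6196 had no read in any of the 6. Of the expressed genes, 11793 were protein coding and 89 were long intergenic noncoding RNAs, out of 20517 and 936 such symbols. The counts of expressed list members below stand beside these shares. The lists were chosen with earlier results of these data known, so such counts describe the lists only. By mean level, 61 genes lay at 1000 CPM or more, 2209 between 100 and 1000, 7209 between 10 and 100, and 3197 between 1 and 10. The median expressed gene stood at 18.9 TPM. A few genes took much of the library, because the 10 most abundant genes held 12.1% ± 1.14 of gene reads and the 100 most abundant 23.4% ± 1.46 (SD, n = 6).

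Insulin and its co-secreted peptide headed the transcriptome in all 6 libraries. Ins2, the mouse insulin gene shared with other mammals, ranged from 38378 CPM in library 2 to 63280 CPM in library 4, with a median of 48484. Iapp, which encodes islet amyloid polypeptide, ranged from 26320 to 34888 CPM with a median of 30372, highest in library 1 and lowest in library 6. Ins1, the rodent retrogene copy of insulin, ranged from 3098 to 4072 CPM with a median of 3344. The 3 genes together took 8.32% ± 1.03 of gene reads (SD, n = 6; 7.11% to 9.91%), and on the TPM scale 20.1% ± 1.35. Ins2 gave 14.1 ± 1.64 reads for each Ins1 read (SD, n = 6; 12.0 to 15.8). Reads that aligned to more than 1 place were set aside in a row of their own, and the part this plays in the ratio was not tested. Ins2 lies on mouse chromosome 7 from 142678656 to 142743381 on the minus strand of GRCm38, in a gene model that merges exons of 1312 bases in all, while a RefSeq-paired transcript has 478; its TPM is therefore the lower of the values that these models give. Ins1 occupies bases 52264297 to 52265476 of chromosome 19 and Iapp bases 142298423 to 142303961 of chromosome 6, both in plus orientation.

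The other beta-cell markers were present in every library. Of 24 genes listed for mature beta-cell function, 23 were expressed (95.8%, beside 49.8% of all symbols). Pdx1, the homeodomain factor that activates insulin and islet genes, ranged from 486 to 579 CPM with a median of 531. Mafa, a factor of mature beta cells, ranged from 453 to 680 CPM with a median of 551. Slc2a2, the glucose transporter GLUT2, ranged from 123 to 187 CPM with a median of 172. Pdx1 had the narrowest spread of these 3, with a coefficient of variation (CV, SD over mean) of 5.79% against 14.8% for Mafa and 13.9% for Slc2a2. Mafa was highest in library 6 and lowest in library 1, whereas Slc2a2 was highest in library 2 and lowest in library 4. With the trend in transcript length described below removed, Slc2a2 had a CV of 5.08%, beside 5.28% for Pdx1 and 11.5% for Mafa, and its value in library 4 was 155 CPM against 159 to 178 CPM in the others.

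**Figure D1:**
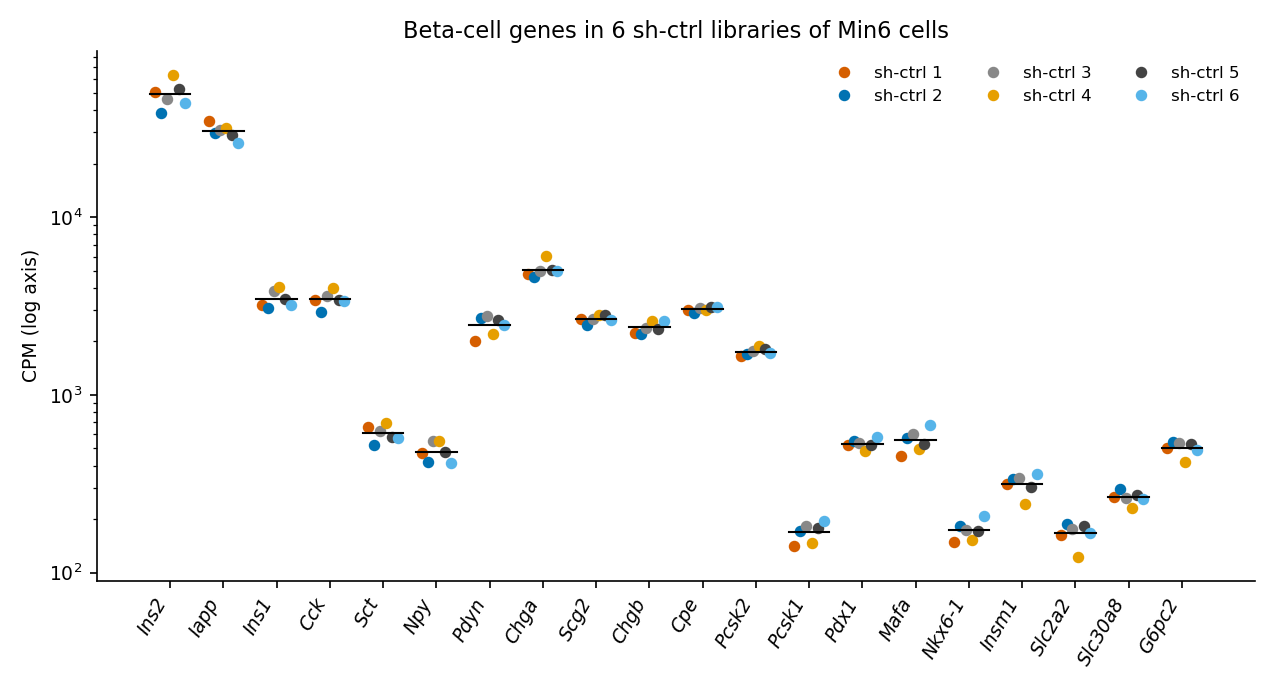
CPM on a log axis for 20 hormone, granule and beta-cell genes; each point is 1 of the 6 sh-ctrl libraries and each bar is their mean. The 6 points of a gene lie close together compared with the distance between genes, from about 123 CPM for the lowest Slc2a2 value to 63280 CPM for the highest Ins2 value.

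The stretches before the starts of Ins1 and Iapp are shown because these genes head the transcriptome and because Pdx1 and Nkx6-1, homeodomain factors that recognise a TAAT core, were both well expressed. The sequences are the 250 bases before the annotated start from the RefSeq table on GRCm38.p6, written 5′ to 3′ on the gene's strand, chr19:52264047-52264296 for Ins1 and chr6:142298175-142298424 for Iapp. Capitals mark TAAT on either strand.
Ins1: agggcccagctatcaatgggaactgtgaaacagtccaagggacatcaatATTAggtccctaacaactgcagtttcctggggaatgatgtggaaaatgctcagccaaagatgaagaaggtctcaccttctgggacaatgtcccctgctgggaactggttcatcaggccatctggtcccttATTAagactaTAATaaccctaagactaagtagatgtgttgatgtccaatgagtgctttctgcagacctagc
Iapp: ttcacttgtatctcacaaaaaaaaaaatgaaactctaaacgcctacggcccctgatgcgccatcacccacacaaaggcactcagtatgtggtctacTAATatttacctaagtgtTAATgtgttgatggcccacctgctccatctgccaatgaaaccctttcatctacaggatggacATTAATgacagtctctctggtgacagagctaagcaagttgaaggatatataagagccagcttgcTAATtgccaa
TAAT on either strand occurs 3 times before Ins1 and 5 times before Iapp, where 1 pair overlaps, 0 times before Cck and once before Chga, and 54.9% of 32851 windows of this length hold at least 1. The E-box CANNTG, which basic helix-loop-helix factors such as Neurod1 recognise and which reads the same on both strands, occurs 2 times before Ins1 and 3 times before Iapp, and in 66.2% of windows. TGCTGA on either strand, a core of sites for MAF factors, occurs in neither window and in 16.1% of all windows. A base may count for more than 1 motif, and these matches describe the sequence only.

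Of 26 beta-cell transcription factors listed, 23 were expressed, against 49.8% of all symbols. On the TPM scale the highest were Pdx1 (mean 694), Mafa (572), Insm1 (287), a zinc-finger factor of endocrine differentiation, and Nkx6-1 (155), a homeodomain factor that keeps beta-cell identity. Insm1 ranged from 242 to 359 CPM with a median of 326, and Nkx6-1 from 149 to 208 CPM with a median of 172. Both were highest in library 6, and library 1 or 4 held the lowest value. Onecut1, Lmx1a and Lmx1b had no read in any library, which at this depth allows up to 3 reads over the 6 libraries, or 0.0343 CPM. Of the large MAF factors, Mafa held 99.6% of the family's TPM. Maf stood at 2.05 TPM.

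Of 10 transcription factors of other islet cells and progenitors, only Pax4 was expressed in all libraries, at 58.3 to 77.4 CPM with a median of 69.1. Pax4 is needed for the beta and delta cell lineages and declines in most adult islet cells. Irx1 and Irx2, factors of alpha cells, averaged 0.995 and 0.788 CPM, and Pou3f4 0.212 CPM. Hhex, Neurog3 and Ptf1a had no read.

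Of 20 granins and granule proteins, 18 were expressed, and of 14 prohormone processing genes, 12. These are 90% and 85.7%, beside 49.8% of all symbols. Chga, chromogranin A, ranged from 4606 to 6020 CPM with a median of 4978, and library 4 stood above the other 5, which lay between 4606 and 5051. Scg2, secretogranin 2, ranged from 2486 to 2835 CPM (median 2673), and Chgb, chromogranin B, from 2194 to 2615 CPM (median 2376). Cpe, the carboxypeptidase that trims prohormones, ranged from 2873 to 3132 CPM with a median of 3051 and a CV of 3.17%. Chga, Scg2 and Chgb shared their highest library, 4, and their lowest, 2, whereas Cpe was highest in library 6. Of the proprotein convertases that cut proinsulin, Pcsk2 held 75.9% of the family's TPM and averaged 622 TPM, against 85.0 TPM for Pcsk1. Pcsk2 was above Pcsk1 in all 6 libraries with ranges that did not overlap. Pcsk1n, an inhibitor of Pcsk1, averaged 886 TPM, and Scg5, the 7B2 chaperone of Pcsk2, 788 TPM.

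Besides insulin and Iapp, 11 of 27 listed islet and gut hormones and neuropeptides were expressed (40.7%), a smaller share than the 49.8% of all symbols. Cck, which encodes cholecystokinin, ranked 4 of all genes by TPM and ranged from 6587 to 7971 TPM. Sct, which encodes the gut hormone secretin, averaged 2645 TPM, Pdyn, the precursor of dynorphin peptides, 2410 TPM, and Npy, neuropeptide Y, 2364 TPM. Their CVs lay between 9.99% and 12.4%, near the 9.46% of Iapp, and with the length trend removed Sct had 6.18% and Iapp 6.2%. Gcg, the glucagon gene, was chosen after its values were seen: it ranged from 239 to 285 CPM with a median of 276, highest in library 3 and lowest in library 6. Sst averaged 8.67 CPM, Ghrl 0.298 CPM and Ppy, with 3 reads, 0.0335 CPM.

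Genes that sense and burn glucose were expressed in 32 of 34 listed cases (94.1%, beside 49.8% of all symbols). Among 10 facilitative glucose transporters, Slc2a5, best known as a fructose transporter, was the highest at 187 TPM (162 to 207) and Slc2a2 the next at 81.6 TPM (55.9 to 95.9). Slc2a5 led in all 6 libraries and the ranges did not overlap. The 3 phosphofructokinases gave no clear order. By TPM the highest 2, Pfkm at 83.5 and Pfkl at 75.9 TPM, had overlapping ranges. Without length scaling the highest was the third member, Pfkp, with a median of 249 CPM against 176 for Pfkl and 102 for Pfkm. Pfkp also led with the RefSeq-paired transcript, and Pfkl with the longest transcript.

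Among the pyruvate kinases, the glucose-6-phosphatases and the lactate dehydrogenases, 1 gene held most of the family's TPM. Gapdh averaged 4281 TPM and Tpi1, triose phosphate isomerase, 2407 TPM. Pkm, the muscle-type pyruvate kinase gene, held 99.1% of its family at 1474 TPM, against 13.8 TPM for Pklr, the liver-type gene. G6pc2, an islet glucose-6-phosphatase, held 90.5% of its family at 715 TPM. Ldha, the lactate dehydrogenase subunit that primary beta cells keep low, held 90.2% of its family and ranged from 293 to 501 CPM with a median of 378. It was highest in library 4 and lowest in library 6.

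Of 36 genes usually kept low in beta cells, 23 were expressed (63.9%, beside 49.8% of all symbols). After Ldha, the highest by TPM were Igfbp4, a binding protein of insulin-like growth factors (137 TPM), Zyx, a focal adhesion protein (80.0 TPM), and Cxcl12, a chemokine (52.2 TPM). The monocarboxylate transporters Slc16a1 and Slc16a3, whose absence keeps beta cells from responding to circulating lactate and pyruvate, averaged 11.7 and 6.87 TPM, below the median expressed gene at 18.9 TPM. Hk2 had 8 reads in all and Yap1 8, while Rest, the repressor of neuronal genes, averaged 1.58 CPM. Hk2, Yap1 and Rest were chosen for mention after their values were seen.

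Of 41 channel and transporter genes of membrane excitability, 30 were expressed (73.2%, beside 49.8% of all symbols). The ATP-sensitive potassium channel was built from Kcnj11, its pore (269 TPM, 207 to 322), and Abcc8, its sulfonylurea receptor (370 TPM, 261 to 455). Kcnj11 held 98.4% and Abcc8 99.7% of the TPM of its family. The alternative pore Kcnj8 averaged 4.01 CPM and the alternative receptor Abcc9 3.72 CPM. Hcn2, a channel opened by hyperpolarisation, averaged 285 TPM and was among the least variable genes, between 320 and 328 CPM. Cacna1c, the pore of an L-type calcium channel, led the calcium channel alpha1 genes at 28.8 TPM with 60.1% of the family, and Cacnb3 led the beta subunits at 121 TPM with 83.0%. Cacna1c ranged from 140 CPM in library 4 to 291 CPM in library 2, a CV of 25.9% that was 7.96% (183 to 233 CPM) with the length trend removed.

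The release machinery was expressed in 27 of 29 listed genes (93.1%, beside 49.8% of all symbols). Napa, an adaptor that recycles the fusion complex, averaged 282 TPM, and Cplx2, a complexin that clamps fusion, 156 TPM. Syt13 led 17 synaptotagmins at 607 TPM with 52.8% of the family, followed by Syt5 at 208 TPM. Synaptotagmins are best known as calcium sensors of exocytosis, but Syt13 is an atypical member. Vamp2, the vesicle SNARE of insulin granules, averaged 152 TPM and overlapped Vamp8 at 134 TPM. Vamp8 led with the RefSeq-paired transcript. Rab3a, a GTPase of granules, averaged 127 TPM against 68.9 TPM for Rab3d. Without length scaling the means were 100.6 CPM for Rab3a and 102.7 CPM for Rab3d. Slc30a8, which loads granules with zinc, held 83.0% of the zinc exporter family at 379 TPM, and 18 of 21 genes of zinc transport and binding were expressed.

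**Figure D2:**
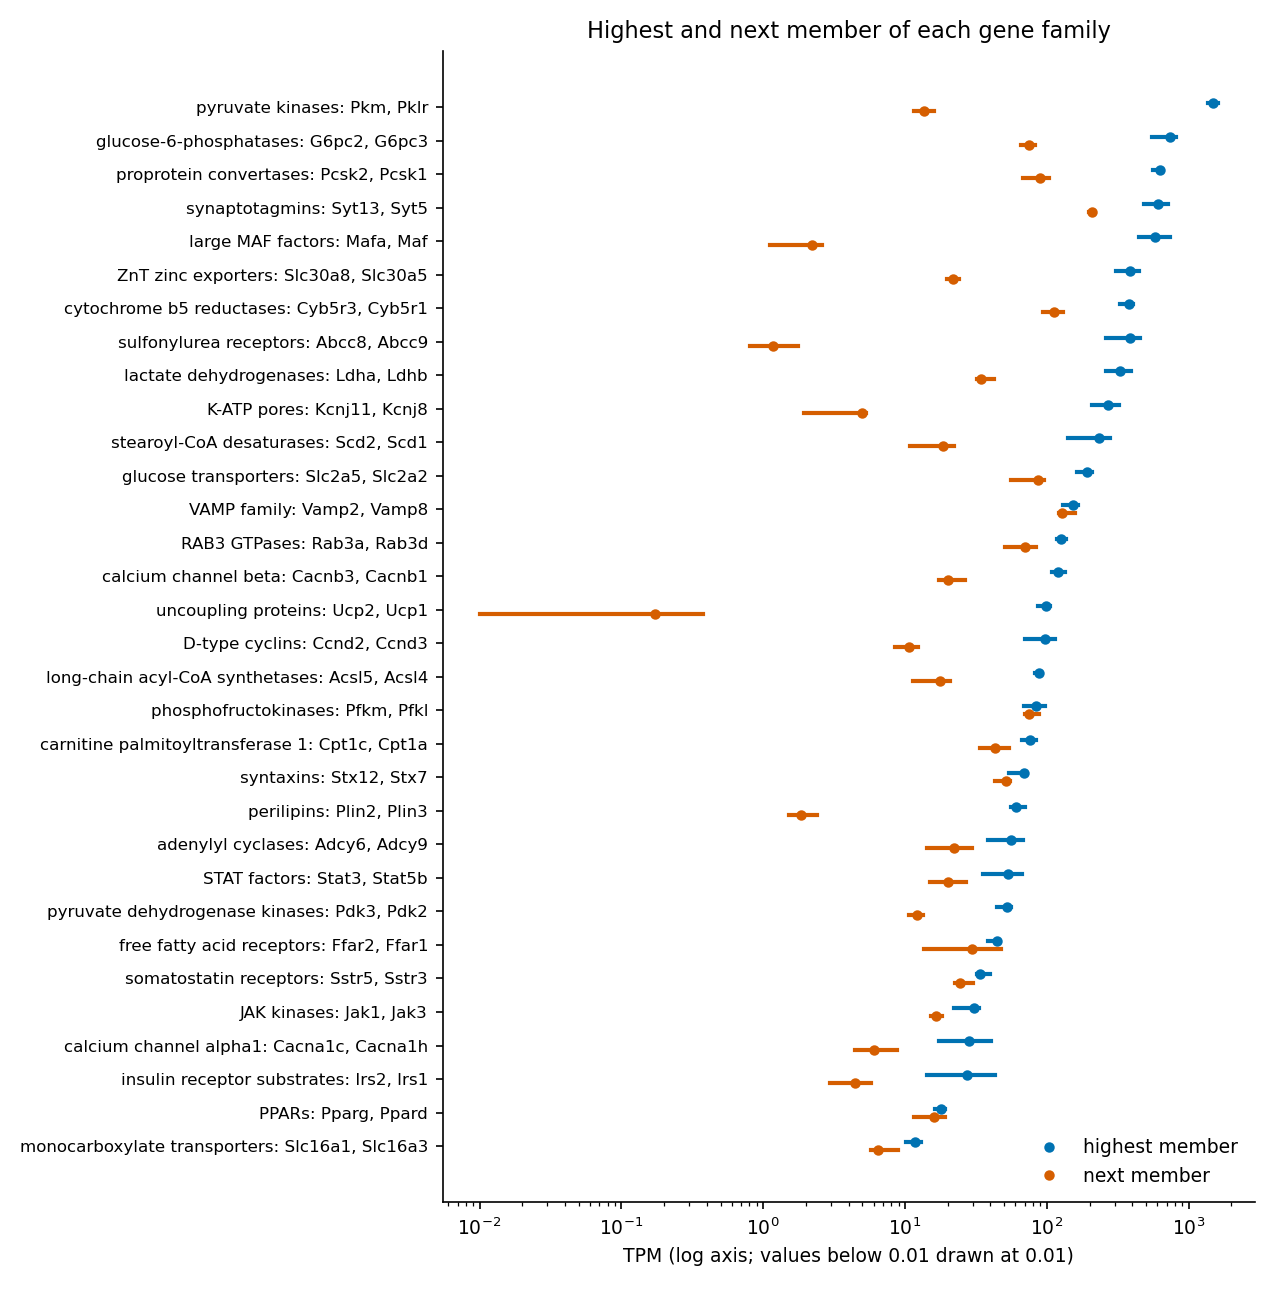
TPM on a log axis for the highest and the next member of 32 gene families; points are medians and lines run from the lowest to the highest of the 6 sh-ctrl libraries. The highest member led in all 6 libraries in 28 families, and its range lay apart from that of the next member in 27.

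Receptors coupled to G proteins were expressed in 31 of 44 listed cases (70.5%, beside 49.8% of all symbols). Adra2a, the adrenergic receptor that restrains insulin release, led at 246 TPM and ranged from 381 to 464 CPM with a median of 415. Oxtr, the oxytocin receptor, averaged 143 TPM, Galr3, a galanin receptor, 133 TPM, and Crhr1, a receptor of corticotropin-releasing hormone, 56.9 TPM. Sstr5 led the somatostatin receptors at 35.1 TPM and did not overlap Sstr3 at 25.2 TPM. Without length scaling Sstr3 was the higher, at a mean of 38.7 CPM against 34.4 CPM for Sstr5. Among the free fatty acid receptors, Ffar2, a receptor of short-chain acids, averaged 43.6 TPM (38.4 to 46.1) and Ffar1, the receptor of long-chain acids such as palmitate, 30.03 TPM (13.7 to 47.6). The ranges overlapped, and Ffar1 had a CV of 40.1% against 6.2% for Ffar2. Without length scaling Ffar1 averaged 43.97 CPM and Ffar2 43.37 CPM. Glp1r, the incretin receptor, averaged 45.9 CPM and was chosen for mention after its value was seen. Gpr119 had no read.

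The receptor that the series was designed around was scarce in these libraries. Il22ra1, the ligand-binding chain of the interleukin-22 receptor, ranged from 0.501 CPM in library 4 to 1.26 CPM in library 6, with a median of 0.822 and 74 reads over the 6 libraries. Its 6 counts did not differ beyond counting noise (chi-square test with Benjamini-Hochberg adjustment, adjusted p = 0.269). Il10rb, the shared second chain, ranged from 20.8 to 25.5 CPM with a median of 23.1. Il22ra2, the soluble decoy receptor, and Il22 itself had 3 reads each. The gene occupies bases 135728172 to 135752140 of chromosome 4 of GRCm38, in plus orientation.

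Downstream, 28 of 34 genes of interleukin-22 and JAK-STAT signalling were expressed (82.4%, beside 49.8% of all symbols). Jak1 led the JAK kinases at 29.4 TPM and Stat3, the factor that carries the signal of this receptor family to the nucleus, led the STAT factors at 51.5 TPM with 42.7% of the family. Stat3 ranged from 129 to 216 CPM with a median of 181, highest in library 6 and lowest in library 4. Tnfrsf1a, a receptor of tumour necrosis factor, averaged 140 TPM, and Il1r1, the receptor of interleukin-1, 113 TPM. Of 30 interferon and antigen presentation genes, 22 were expressed, led by the class I genes H2-K1 (658 TPM) and B2m (216 TPM). Usp18, an interferon-induced protease, averaged 125 TPM, whereas Ifnb1 had no read. Of 20 NF-kB targets and cytokines, 14 were expressed, led by Rela (104 TPM), Nfkbia (101 TPM) and Nfkb2 (88.3 TPM).

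Cyb5r3, a cytochrome b5 reductase that transfers electrons from NADH, ranged from 520 to 608 CPM with a median of 584 and held 74.1% of its family at 376 TPM. Its electron carrier Cyb5b averaged 150 TPM and the paralog Cyb5r1 111 TPM. The 6 listed genes of this group were expressed in every library.

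Stress pathways of the endoplasmic reticulum were expressed throughout, with 30 of 30 genes of the unfolded protein response and 26 of 26 of the integrated stress response past 1 CPM in every library. The folding enzymes P4hb, a protein disulfide isomerase, and Calr, the lectin chaperone calreticulin, averaged 1585 and 1038 TPM. P4hb ranged from 1420 to 1780 CPM with a median of 1615, highest in library 3 and lowest in library 1. Herpud1, a component of the degradation machinery of the reticulum, averaged 441 TPM. In the integrated stress response, Asns, asparagine synthetase, ranged from 1015 to 1137 CPM (median 1084), and Atf4, the factor that drives the programme, from 732 to 880 CPM (median 797). Shmt2 and Phgdh, enzymes of serine and folate metabolism, averaged 1105 and 980 TPM. Trib3 and Ddit3, targets of Atf4, averaged 461 and 141 CPM and were chosen after their values were seen. The median member of this list stood at 351 TPM, against 18.9 TPM for the median expressed gene. No library without palmitate enters, so these levels cannot be read as a response to it.

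Fatty acid handling was expressed in 30 of 39 listed genes of uptake, oxidation and PPAR targets, at a median of 17.1 TPM. Acsl5 led the long-chain acyl-CoA synthetases at 88.0 TPM with 72.5% of the family and ranged from 143 to 164 CPM, or from 133 to 194 CPM with the length trend removed. Cpt1c, a brain-type member, led the carnitine palmitoyltransferases 1 at 74.5 TPM and did not overlap Cpt1a, the liver-type gate of mitochondrial oxidation, at 43.5 TPM. Acadvl and Acadl, dehydrogenases of long-chain acyl-CoA, averaged 153 and 89.7 TPM, with 42.85% of Acadvl exon bases shared with another gene. Plin2, a coat protein of lipid droplets, held 94.3% of the perilipin family at 62.0 TPM. Pparg and Ppard overlapped at 17.7 and 15.1 TPM, and Ppara had 14 reads. Cd36, Pdk4 and Cpt1b had 19, 0 and 0 reads, with 81.4% of Cpt1b exon bases shared with another gene.

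Of 26 genes of fatty acid and triglyceride synthesis, 24 were expressed. Acly, which makes cytosolic acetyl-CoA, led at 1088 TPM and ranged from 1400 CPM in library 4 to 2452 CPM in library 2, with a median of 2152. Fads2 and Fads1, desaturases of polyunsaturated fatty acids, averaged 319 and 296 TPM. Scd2 held 89.7% of the stearoyl-CoA desaturases at 219 TPM, against 17.6 TPM for Scd1. Cholesterol synthesis and uptake was expressed in 30 of 30 genes, with Fdps, farnesyl diphosphate synthase, at 129 TPM and Ebp, a sterol isomerase, at 108 TPM.

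Antioxidant genes were expressed in 27 of 32 cases. The metallothioneins Mt2 and Mt1, which bind zinc and other metals, averaged 1724 and 1147 TPM, with 73.5% of Mt2 exon bases shared with another gene. Mt1 ranged from 341 CPM in library 6 to 804 CPM in library 4 with a median of 453, and Mt2 from 233 to 474 CPM with a median of 364. Gpx4, which reduces lipid peroxides, averaged 870 TPM and Prdx4, a peroxiredoxin of the endoplasmic reticulum, 432 TPM. Cat, catalase, stood at 4.34 CPM and was chosen after its value was seen.

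Cell cycle genes, a list that holds inhibitors of the cycle as well, were expressed in 36 of 37 cases. Cdkn2a, an inhibitor that restrains the cyclin D kinases, averaged 836 TPM, Pcna, the replication clamp, 763 TPM, Cdkn1a, a target of p53, 762 TPM, and Cdkn2c 477 TPM. Ccnd2 held 89.2% of the D-type cyclins at 94.2 TPM. Of 31 genes that beta cells share with neurons, 27 were expressed, led by Stmn1 (719 TPM), Stmn3 (601 TPM), Syp (313 TPM) and Tubb3 (278 TPM). Among imprinted genes, 16 of 22 were expressed, led by Nnat (1325 TPM), Igf2 (505 TPM) and Dlk1 (470 TPM). Igf2 shares 64.55% of its exon bases with another gene. Of 13 progenitor and dedifferentiation genes, 5 were expressed (38.5%, beside 49.8% of all symbols). The highest were Hes1 at 55.3 TPM and Nes at 30.5 TPM, while Aldh1a3 and Pou5f1 had no read.

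Marker lists of other pancreatic cells, apart from the duct list, had fewer expressed members than the 49.8% of all symbols. The duct list lay near that share. Of protein-coding symbols alone, 11793 of 20517 were expressed. Expressed members numbered 2 of 21 for acinar cells, 7 of 13 (53.8%) for duct cells, 4 of 11 for endothelial cells, 3 of 14 for fibroblasts and stellate cells, 3 of 14 for leukocytes and 2 of 7 for glia. The acinar list summed to 232 to 279 CPM, while the acinar enzymes Cpa1, Prss1, Prss2, Pnlip and Amy2b had no read. The duct list summed to 364 to 457 CPM, with members such as Krt7 (169 CPM), Krt8 (98.2 CPM), Spp1 (53.8 CPM), Epcam (46.2 CPM), Car2 (30.3 CPM) and Muc1 (1.88 CPM), while Sox9 had 1 read and Cftr 4. Keratins and Epcam are epithelial genes that islet cells can also carry.

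The endothelial list summed to 118 to 147 CPM, of which Plvap gave 83.1 to 118 and Esam 21.5 to 28.9. Pecam1, a defining marker, averaged 2.78 CPM and Tek 2.89 CPM, both past 1 CPM in every library, while Kdr and Flt1 had 1 read each and Cdh5 had 4. The fibroblast list summed to 30.1 to 41.8 CPM with Col6a3 at 25.2 CPM, Col1a1 at 2.68 CPM and Thy1 at 2.31 CPM, and Dcn and Lum had 1 read each. The leukocyte list summed to 27.2 to 36.5 CPM with Cd68, a lysosomal protein, at 22.04 CPM, Cd74 at 5.73 CPM and Fcer1g at 2.17 CPM, and Ptprc had 3 reads. The glial list summed to 79.4 to 113 CPM with Ngfr, the low-affinity neurotrophin receptor, at 88.0 CPM and Erbb3 at 4.43 CPM, and Sox10 had 1 read. Each of the 6 lists thus held both expressed members and members at or near 0.

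**Figure D3:**
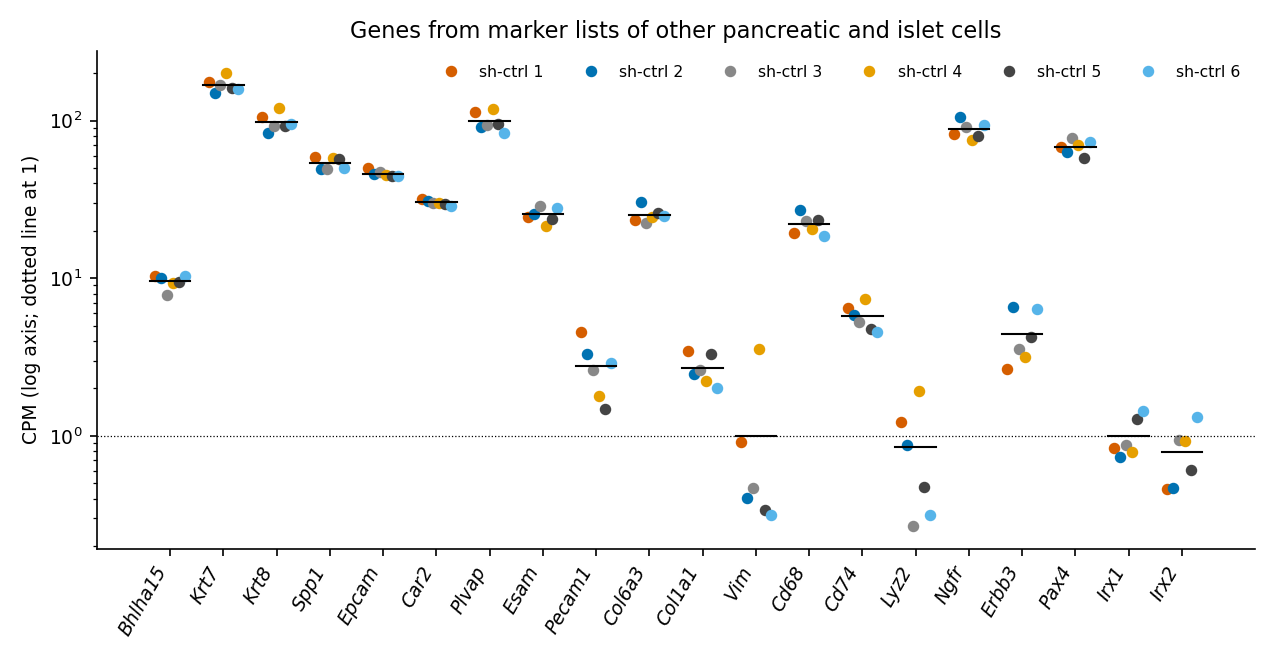
CPM on a log axis for 20 genes of the marker lists of other pancreatic and islet cells; each point is 1 sh-ctrl library, bars are means, and the dotted line is the 1 CPM of an expressed gene. Krt7 and Plvap lie above 80 CPM in every library, and Vim stands out in library 4 at 3.58 CPM against at most 0.915 CPM in the others.

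A low count in these tables is not proof that a gene is silent. Of 86 ribosomal protein symbols, 77 were expressed, with 3.48% to 4.96% of gene reads, and Rpl41, Rps15 and Rpl19 averaged 4933, 3743 and 3415 TPM. Yet Rpl26 had 1 read over the 6 libraries, Rpl34 19, Rpl30 29 and Rps27 50, although ribosomes need them. Eno1, the common enolase of glycolysis, had 3 reads beside 6328 CPM of Gapdh. These 5 genes were singled out after their values were seen, and whether reads were lost to near-identical copies was not tested. Rn45s, the ribosomal RNA precursor, took 0.673% to 1.89% of gene reads, ranging from 6729 CPM in library 5 to 18878 CPM in library 6.

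Libraries differed from each other by more than counting error for most genes, but by modest amounts. Of 13096 genes averaging 10 or more reads per library, 9652 varied beyond counting noise (chi-square test of homogeneity, Benjamini-Hochberg adjusted p of at most 0.05), which is 73.7%. Among the listed groups the share was 30 of 30 tested for the unfolded protein response, 76 of 77 for ribosomal proteins, 35 of 36 for the cell cycle and 14 of 23 for interferon genes, and it follows depth as well as spread, since abundant genes are measured more finely. The median CV of the 9479 genes averaging 10 CPM or more was 10.8%, and the central 8 in 10 genes lay between 5.28% and 20.6%. Of these genes, 4189 had a CV below 10%, 1054 over 20% and 2 over 50%. The common biological coefficient of variation from edgeR was 0.129.

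**Figure D4:**
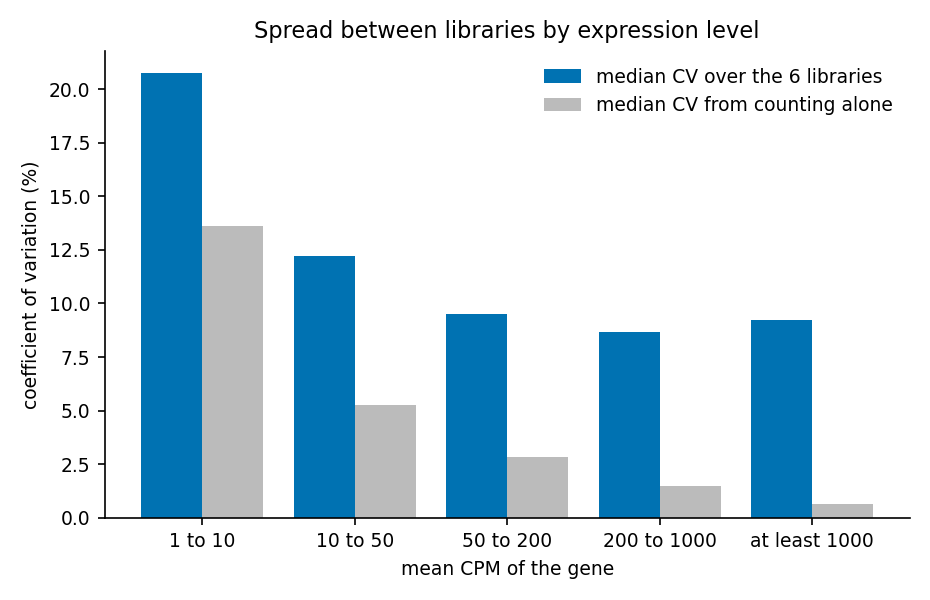
Median coefficient of variation over the 6 sh-ctrl libraries for genes grouped by mean CPM, beside the median expected from counting alone; bars start at 0 and the groups run from 1 to 10 CPM up to 1000 CPM or more. The measured median fell from 20.8% at 1 to 10 CPM to 8.67% at 200 to 1000 CPM, while the part from counting fell from 13.6% to 1.49%. At 1000 CPM or more the measured median was 9.21% and the part from counting 0.661%.

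The tightest genes averaging 50 CPM or more were Dnajb6, a cochaperone, with a CV of 0.890% (81.1 to 83.3 CPM, median 82.6), Hdac1, a histone deacetylase, with 1.03% (199.5 to 205 CPM, median 202), and Hcn2 with 1.11%. For these 3 the counts did not differ beyond counting noise (adjusted p = 0.992, 0.921 and 0.729 by the chi-square test with Benjamini-Hochberg adjustment). The 3 genes were picked as the smallest CVs of these same counts among 4493 genes, so the test could hardly come out otherwise. Counting alone gave a median CV of 2.82% for genes at 50 to 200 CPM and 1.49% at 200 to 1000 CPM. So small a CV is therefore partly a product of the choice. Morf4l1, Hnrnpa2b1, Maff, Maea, Ddx39b and Paqr4 were among the next, with CVs of 1.45% to 2.06%. Of 18 common reference genes of quantitative PCR, all were expressed, and their median CV was 9.49%. Eef1a1, a translation factor, had a CV of 4.19% and Gapdh one of 10.3%. Actb and Polr2a, chosen after their values were seen, had CVs of 6.34% and 27.5%. With the length trend removed the CV was 2.71% for Eef1a1 and 10.7% for Polr2a. Dnajb6 then had a CV of 6.78%, Hcn2 of 6.0% and Hdac1 of 1.01%, so of the 3 tightest genes only Hdac1 kept its value. The genes named after them then had CVs of 2.17% (Maea) to 5.09% (Hnrnpa2b1).

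Among genes averaging 50 CPM or more, the widest were Ago2, an Argonaute protein of RNA silencing, with a CV of 47.8%, Fat1, a giant cadherin, with 42.2%, and Spen with 40.3%. Ago2 ranged from 24.8 CPM in library 4 to 84.9 CPM in library 2 with a median of 48.7, and Fat1 from 85.0 to 266 CPM with a median of 173, again lowest in library 4 and highest in library 2. Peg3, Irs2, Bsn, Wdfy3, Abhd2, Pkd1 and Akap13 followed, with CVs of 36.7% to 39.9%. Irs2, the main insulin receptor substrate here with 86.6% of its family's TPM, ranged from 33.8 CPM in library 1 to 92.1 CPM in library 6. Each of these 10 genes was highest in library 2 or 6 and lowest in library 1 or 4, and their RefSeq-paired transcripts were 6323 to 15938 bases long. None of the 10 was among the 20 widest once the length trend was removed, and their CVs were then 7.45% (Bsn) to 24.5% (Abhd2).

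This order of libraries ran through the whole transcriptome. The first principal component of 7661 genes averaging 20 CPM or more held 74.2% of the variance between libraries, with scores of 22.1 for library 4, 11.4 for library 1, -1.71 for 5, -4.30 for 3, -12.5 for 6 and -14.9 for 2. Its low end held Fat1, Aff2, Ago2, Tnks, Sik2, Kif13b, Mgat5 and Vps13c, and its high end Mt1, Fam162a, Nrtn, Angptl6, Tppp3, Anxa2, Blvrb and Bola2. Across 7650 of these genes, the loading and log2 transcript length had a Pearson r of -0.72, and the loading and GC content one of 0.09; genes are not independent replicates and share the same 6 libraries. In library 4 the median deviation from the mean of the 6 libraries went from 0.15 on the log2 scale in the shortest of 5 equal parts of the genes to -0.34 in the longest part. In library 2 it went from -0.12 to 0.23. Libraries 3 and 5 stayed within 0.05 of the mean in all 5 parts.

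**Figure D5:**
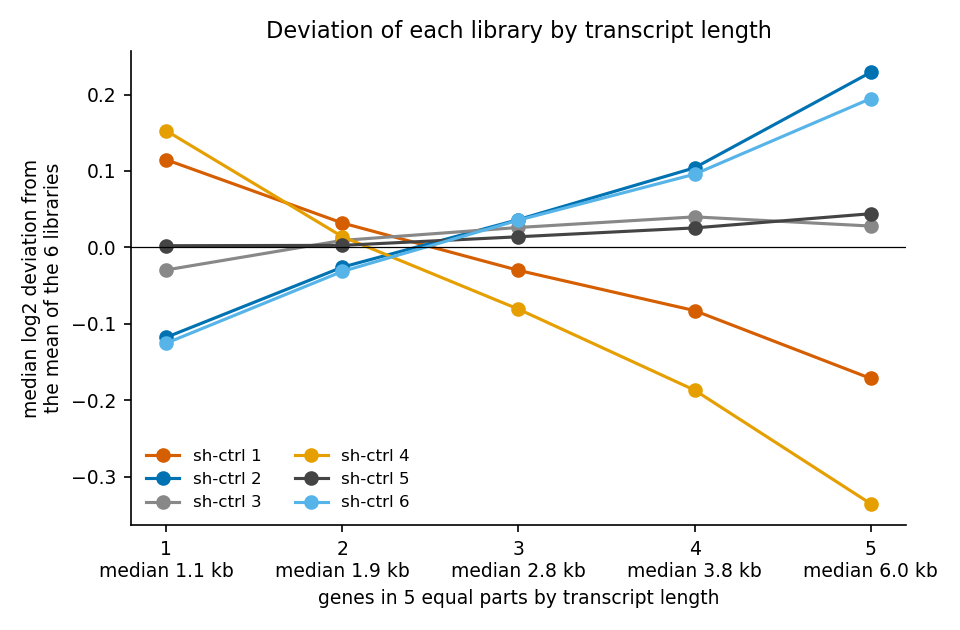
Median log2 deviation of each sh-ctrl library from the mean of the 6, for genes in 5 equal parts by transcript length; each line is 1 library. Libraries 1 and 4 fall with length, to -0.17 and -0.34 in the longest part, libraries 2 and 6 rise to 0.23 and 0.19, and libraries 3 and 5 stay near 0.

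Removing a smooth trend with length and GC content from each library took out 48.1% of the variance between libraries and lowered the median CV from 10.8% to 8.10%. Genes beyond counting noise then numbered 7884 of 13029, or 60.5%. A first component computed again after this removal held 60.4% of the variance that remained, and the libraries kept their order on it. Library 4 scored 15.0, library 1 6.07 and library 5 -0.593, and libraries 3, 6 and 2 scored -4.71, -6.72 and -9.08. Values with the length trend removed thus still carry differences along this order. Reads that did not align were also most frequent in libraries 4 and 1, at 17.3% and 16.3% against 12.8% to 15.2% in the others. Reads of low alignment quality did not follow the same order: they were most frequent in libraries 4 and 6, at 5.30% and 5.13%, and library 1 had 4.002%. Integrity of the RNA was not among the data used here, and the part of RNA or library quality in the length trend was not tested. Cacna1c, Acly, Stat3 and Irs2, named above, were highest in library 2 or 6 and lowest in library 1 or 4, and Mt1 and Ldha were highest in library 4 and lowest in library 6. With the length trend removed, Acly ranged from 1647 to 2211 CPM and Stat3 from 152 to 194 CPM.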

How the data were processed

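Per the labels' protocols, total RNA of Min6 cells was isolated with TRIzol and read from both ends of each fragment on a NovaSeq. The deposited files hold whole-number read counts for 24421 gene symbols and 5 rows of unassigned reads. HISAT2 2.0.5, HTSeq and the mm10 build come from the submitters' processing notes. Annotation, strand mode and counting mode: not given in the sources used here. The 6 sh-ctrl files were used, grouped by title. Unassigned rows stayed out of library sizes: on average 14.8% of reads were not aligned, 4.44% had low alignment quality, 3.96% aligned more than once, 3.84% lay outside genes and 1.87% were ambiguous.

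CPM was the count divided by the reads in genes. TPM used all exons of a gene merged, from GENCODE M21 on GRCm38, to which 23384 symbols matched directly and 651 by synonym; 386 had no model, and a symbol without one has no TPM. Exon overlap ignores strand. Spread was tested by a chi-square test of the 6 counts per gene (5 degrees of freedom, mean of at least 10 reads, Benjamini-Hochberg at 0.05). The biological coefficient of variation was estimated, without a test, by edgeR 4.0.16 (TMM, filterByExpr) in R 4.3.3. Both steps were also run on simulated data. Python 3.11.15 ran the other steps, through pandas 2.3.3, scipy 1.17.1 and numpy 2.4.6. A count of 0 allows 3 reads over the 6 libraries. Transcript length and GC for the length trend came from a transcript paired with RefSeq; an earlier version with the longest transcript was replaced after its output was seen, and both are reported. The promoter table held 4 of 5 genes looked for.

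The 6 libraries were chosen by title, but the gene lists and markers were chosen with earlier results of these data known. The rule named 236 genes: the 6 markers, Il22ra1, Il10rb and Cyb5r3; the 20 genes highest by TPM and by CPM; the 4 highest members of each list by TPM and low members of lists about absence; other-cell markers above 10 CPM; the first and second member of each family; the 10 most and 10 least variable genes from 50 CPM; and 8 genes at each end of the first component from 20 CPM. Other genes named were chosen after their values were seen. Alternatives covered scaling, filters, length, DESeq2 1.42.0 dispersions and leaving libraries out. Some items that the rule names are not reported here.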

Additional observations from a re-analysis of the deposited data

Results flagged for a closer look

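In 15 of 236 named genes and 1 of 19 library measures, 1 library lay far from the other 5 by Dixon's ratio of gap to range; chance flags about 1 in 20 groups. Library 4 was the far one in 8 genes. It was high for Chga, the granin (6020 CPM against at most 5051), Pkm, pyruvate kinase (3073 against at most 2656), Pfkl, phosphofructokinase (224 against at most 178), Syp, synaptophysin (641 against at most 584), and Vim, the intermediate filament vimentin (3.58 against at most 0.915). It was low for Slc2a2, the glucose transporter (123 CPM against at least 163), and Crhr1 (40.3 against at least 50.3). Library 1 was high for Cyb5r4 (38.8 CPM against at most 34.6) and low for Eef2, an elongation factor (2350 against at least 2918), and Kcnj8 (1.83 against at least 4.22). Library 6 was low for Eef1a1 (4345 CPM against at least 4760) and library 2 for Morf4l1 (320.2 against at least 329.8). Ddx3y, Eif2s3y and Kdm5d are Y-linked and were flagged on a single read each, at 0.0677 CPM in library 5 for the first pair and 0.0715 CPM in library 4 for Kdm5d, with 0 reads in the others. Library 3 had the fewest genes with a read, 15963 against at least 16140. With the trend in transcript length removed, an alternative added after seeing the data, 9 of the 15 genes still had the same library apart, among them the 3 Y-linked genes, Chga, Pkm, Syp, Vim, Crhr1 and Kcnj8. Slc2a2 (155 CPM in library 4 against at least 159), Morf4l1, Cyb5r4, Eef2, Eef1a1 and Pfkl did not. The causes were not tested.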

How the results depend on the processing

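No paired analysis was possible because only 1 group was analysed. Leaving out libraries 1 and 4 together, an alternative chosen after seeing the data, lowered the median CV from 10.8% to 7.22%, the genes beyond counting noise from 9652 to 6122 and the biological coefficient of variation from 0.129 to 0.0789. Per length, Ins1, Ins2 and Iapp took 20.1% in place of 8.32%, because their exons are short. Without each library in turn, the median CV across libraries was 8.93% to 11.6%, the number of genes varying more than counting noise 8034 to 9482 and the common biological coefficient of variation 0.105 to 0.142, each lowest without library 4. The number of genes with at least 1 CPM in every library was 12185 to 12216 without 1 library, 12811 with a minimum of 0.5 CPM and 10228 with one of 5 CPM. Removing the length trend with the longest transcript, also added later, gave a median CV of 8.38% and 8066 genes. DESeq2 dispersions gave 0.125. The highest member stayed the same in 29 of 33 families with the longest transcript, 27 with the RefSeq-paired transcript and 26 without length scaling. Of 236 named genes, 197 moved by over 1 SD with unassigned reads in the total and 95 with Ins2, Iapp and Rn45s out of it, by construction of the denominator, and 0 under TMM, RLE or 1416 values with 1 library left out. Depth limits genes of low level. At 1 to 10 CPM the median CV was 20.8%, beside 13.6% from counting alone, and 45.8% of genes varied beyond counting noise.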

Other observations

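Some genes of neuroendocrine and noncoding kinds were measured beyond the lists led with above. Th, tyrosine hydroxylase, which makes the precursor of dopamine, ranged from 90.9 to 120 CPM with a median of 109, and Tph1 and Tph2, which start serotonin synthesis, averaged 6.64 and 9.99 CPM. Slc18a1, the vesicular monoamine transporter 1, averaged 13.0 CPM and Slc18a2 1.19 CPM. These genes were chosen after their values were seen.

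The immediate early genes were expressed in 17 of 20 cases, led by Jund (1084 TPM) and Ier2 (137 TPM), with 52.6% of Jund exon bases shared with another gene. Of 16 nuclear and other noncoding RNAs listed, 9 were expressed (56.25%). All symbols gave 49.8%, and long intergenic noncoding RNAs alone 89 of 936. The small nucleolar RNA host genes Snhg1, Snhg8 and Gas5 averaged 84.4, 49.96 and 31.6 TPM. Malat1 and Neat1 averaged 24.3 and 81.9 CPM. Xist, the RNA of the inactive X chromosome, averaged 0.393 CPM, and the 4 Y-linked genes listed had 3 reads in all.

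Lars2, a mitochondrial leucyl-tRNA synthetase outside the rule for named genes, moved over libraries in step with Rn45s at both ends: it was lowest in library 5 at 189 CPM and highest in library 6 at 488 CPM, while Rn45s went from 6729 to 18878 CPM in the same 2 libraries. The cause was not tested.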
